A study of Mus musculus with 32 samples.

Results

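Pou5f1, Nanog, Sox2 and Sall4 are the core transcription factor genes of pluripotency, and their RNA was followed through 6 days of differentiation in 4 kinds of culture. They were chosen by symbol, as the rows of the deposited expression table named for these 4 genes, out of 55492 rows in all. Each symbol had 1 row. Polyadenylated RNA was sequenced from mouse embryonic stem cells and from the retinal organoids grown from them, with 2 libraries in each of 16 groups. WT is the Rx:GFP line, named for a fluorescent reporter of the eye field gene Rx. KO is the same line after knockout of Mettl3, the gene for the catalytic subunit of the nuclear complex that places the N6-methyladenosine mark (m6A) in messenger RNA. In the no Dex group the KO line overexpressed METTL3 fused to a domain that the labels call GRBD, and the fusion protein is described as cytosolic. In the Dex group the same cells received dexamethasone (Dex, a synthetic glucocorticoid) at 10 µM, with which the fusion protein is described as moving to the nucleus. An effect of dexamethasone itself and of the moved protein therefore cannot be told apart. Samples were taken from stem cells, called day 0, and on days 2, 4 and 6 of culture, and every line was differentiated in serum replacement medium with a compound named AGN. Day 0 libraries are labelled as Dex treated, although the protocol lists the drug for 2, 4 and 6 days only. The labels do not say whether a knockout line is 1 clone, nor whether the 2 libraries of a group came from separate cultures. The p-values below therefore measure only the spread between these libraries, which may be technical.

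OCT4 (encoded by Pou5f1) and SOX2 bind DNA side by side at composite sites and together drive the genes of the undifferentiated state, their own genes included. NANOG, a homeodomain protein, joins them and holds back the exit from naive pluripotency, and SALL4, a zinc finger protein, helps to keep Pou5f1 on. When stem cells leave for the neural and retinal fate, Nanog is usually lost early and Pou5f1 later, while Sox2 stays on because neural and retinal progenitors use it too. The m6A mark is known to shorten the life of many messenger RNAs in stem cells, among them messengers of pluripotency factors.

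The sequences upstream of these genes are shown because the proteins of 2 of them, OCT4 and SOX2, are known to act on the others through short sites of this kind. Each run holds the 250 bases before the transcription start given by RefSeq on GRCm38.p6, written 5′ to 3′ on the gene's strand, which is the plus strand for all 3 genes. Capitals mark every match, on either strand, to the octamer element ATGCAAA, the SOX element CATTGT or the GC box GGGCGG. They also mark the composite, in which CATTGT, 1 further base and ATGCAAA follow each other and which therefore overlaps a match to each.
Nanog, chr6:122707239-122707488: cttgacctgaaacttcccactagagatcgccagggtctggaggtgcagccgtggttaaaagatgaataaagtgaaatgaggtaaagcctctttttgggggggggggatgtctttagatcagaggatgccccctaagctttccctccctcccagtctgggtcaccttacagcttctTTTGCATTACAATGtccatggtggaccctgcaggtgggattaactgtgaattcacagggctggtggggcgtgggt
Sox2, chr3:34649745-34649994: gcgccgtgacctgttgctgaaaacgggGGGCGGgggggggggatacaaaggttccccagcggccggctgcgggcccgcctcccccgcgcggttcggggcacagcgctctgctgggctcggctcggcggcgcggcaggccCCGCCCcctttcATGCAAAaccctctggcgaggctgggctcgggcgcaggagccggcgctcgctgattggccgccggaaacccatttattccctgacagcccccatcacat
Pou5f1, chr17:35505782-35506031: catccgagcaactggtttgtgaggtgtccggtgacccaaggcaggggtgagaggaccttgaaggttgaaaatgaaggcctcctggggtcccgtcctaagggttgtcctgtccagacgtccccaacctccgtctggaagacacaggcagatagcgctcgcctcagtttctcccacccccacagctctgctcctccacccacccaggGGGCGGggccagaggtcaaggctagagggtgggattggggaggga
The Nanog run held the composite on the minus strand, 75 to 62 bases before the start. RefSeq gives Nanog a second start too, and the same composite lies 151 to 138 bases before that start. Among 32851 RefSeq windows of 300 bases only 2 held the composite, which is 0.00609%, and both were overlapping windows of Nanog. The Sox2 run held a lone octamer element 99 to 93 bases before the start and 2 GC boxes. That RefSeq start lies upstream of the GENCODE start of Sox2 given below. The Pou5f1 run held 1 GC box, 45 to 40 bases before the start. RefSeq gives Pou5f1 a second start further into the gene, whose window, chr17:35508557-35508856, held a lone SOX element 158 to 153 bases before that start and no other match. The octamer element was present in 4.63% of all windows, the SOX element in 12.6% and the GC box in 35.7%. A match is a description of letters and not a measured binding site. In the GENCODE M21 annotation of GRCm38, Pou5f1 (ENSMUSG00000024406) spans 35506018 to 35510772 on chromosome 17, Nanog (ENSMUSG00000012396) spans 122707489 to 122714633 on chromosome 6, and Sox2 (ENSMUSG00000074637), a single-exon gene, spans 34650405 to 34652461 on chromosome 3, all on the plus strand. Sall4 (ENSMUSG00000027547) spans 168748332 to 168767943 on the minus strand of chromosome 2.

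Levels are given in FPKM, fragments per kilobase of transcript and per M (mega) of mapped fragments, so that they can be set beside each other between genes. The depth of a library, estimated from the values, lay between 28.7 M and 55.2 M fragments (median 37.6 M). At that depth 3 fragments on a transcript of 2 kb equal 0.027 to 0.052 FPKM, counting error only, and the lowest value of any of the 4 genes was 4.08 FPKM. The squared differences between duplicates were, for the median gene, 1.34 to 3.5 times what counting alone gives. They were largest between the WT libraries of day 0. Differences between groups were tested with limma on log2(FPKM + 1) over 16276 genes, and a gene is called when its Benjamini-Hochberg adjusted p is under 0.05. A large share of all genes was called in every comparison, and the share of all genes is given with the counts below. Mettl3 itself was no lower in KO libraries than in WT. WT had 35.0 FPKM of it at day 0 and KO 43.4 FPKM, a log2 difference of 0.30 ± 0.06 (SE, limma adjusted p = 0.000417), and it was not called at days 2, 4 or 6. The labels do not give the kind of knockout, and a level over the whole gene does not tell whether the RNA still encodes the enzyme, so this value does not check the label. KO and WT stand below for the libraries so labelled.

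All 4 genes were high at day 0 in every line and followed 4 different courses, shown in the plot of levels by day. Pou5f1 was held to day 2 and then lost, Nanog was lost by day 2, Sox2 dipped at day 2 and stayed high, and Sall4 dipped at day 2, returned at day 4 and was lower at day 6. At day 0 Pou5f1 stood highest, at 884 to 1064 FPKM in the group means, followed by Sox2 at 203 to 247 FPKM, Nanog at 175 to 191 FPKM and Sall4 at 78.8 to 82.8 FPKM. In these bulk samples, fewer cells expressing a gene and less RNA per cell cannot be told apart. Day 6 against day 0 was called lower for all 4 genes in all 4 lines. The share of all tested genes called lower in that comparison was 34.5% in WT, 35.4% in KO, 33.9% in no Dex and 34.0% in Dex. The share called in either direction was 78.1%, 80.4%, 81.9% and 80.4% in the same order.

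**Figure D1:**
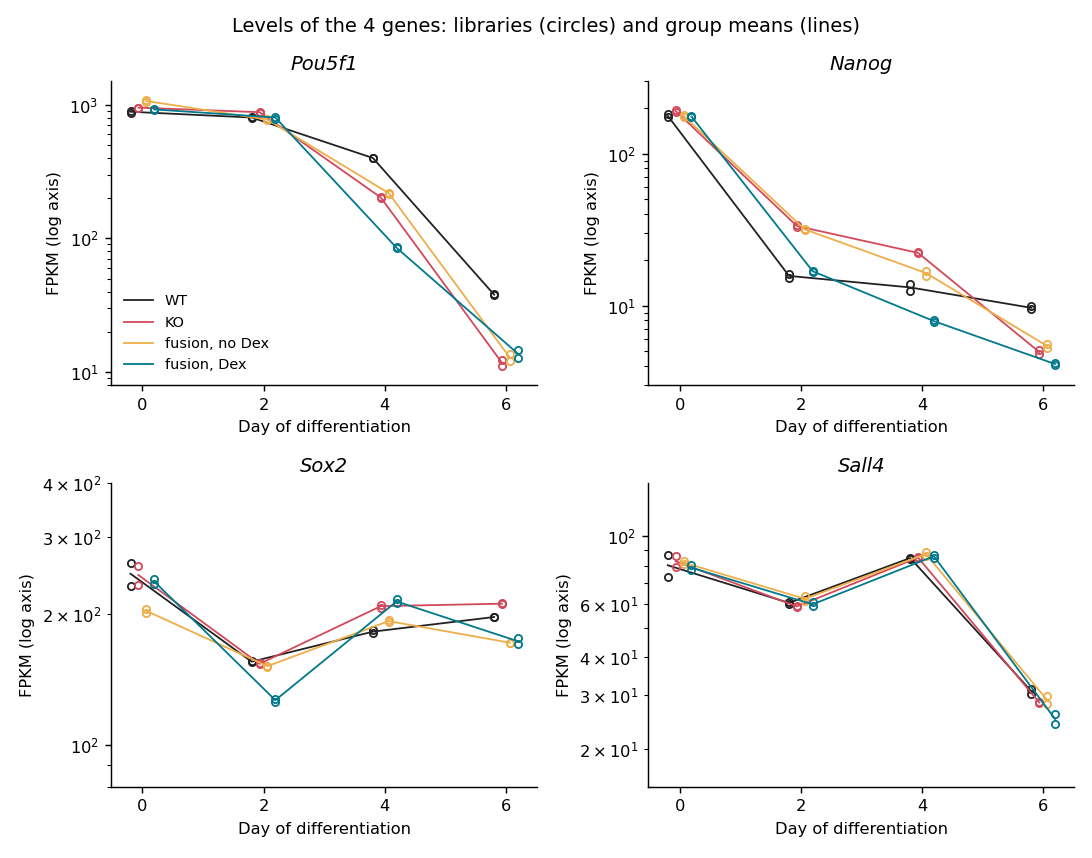
FPKM (log axis) of Pou5f1, Nanog, Sox2 and Sall4 against day of differentiation, with each library as a circle and lines through the group means of WT, KO and the fusion line without and with Dex. Pou5f1 in WT stands above the other lines at days 4 and 6, Nanog in KO and no Dex stands above WT and Dex at day 2, and the 4 lines run together for Sall4.

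Pou5f1, the POU factor without which the inner cell mass does not become pluripotent, kept most of its RNA for 2 days and then lost nearly all of it, and in the step to day 4 WT lost the least and Dex the most. In WT its levels, library 1 before library 2 here and below, were 868 and 900.3 FPKM on day 0, then 802 and 799 on day 2, 396 and 401 on day 4 and finally 37.6 and 38.2 on day 6. In KO they were 947 and 951 FPKM on day 0, then 869 and 886 on day 2, 204 and 199 on day 4 and finally 12.4 and 11.1 on day 6. In no Dex they were 1049 and 1079 FPKM on day 0, then 779 and 765 on day 2, 216 and 219.9 on day 4 and finally 13.6 and 12.1 on day 6. The WT libraries thus ended at 4.29% of their day 0 mean, the KO libraries at 1.24% and the no Dex libraries at 1.2%. In Dex they were 913 and 928 FPKM on day 0, then 813 and 787 on day 2, 84.1 and 86.0 on day 4 and finally 14.8 and 12.8 on day 6. The Dex line lost most of it between days 2 and 4, down to 9.24% of its day 0 mean, where WT still held 45.1%, KO 21.3% and no Dex 20.5%. On the log2 scale the step from day 2 to day 4 was -1.0 ± 0.05 in WT, -2.11 ± 0.05 in KO, -1.82 ± 0.05 in no Dex and -3.22 ± 0.05 in Dex (SE), all called. The step from day 4 to day 6 was the larger one in WT, KO and no Dex, at -3.36, -4.00 and -3.99, and the smaller one in Dex, at -2.55, also all called. KO and no Dex were not called against each other at day 4 (0.11, adjusted p = 0.135) or day 6 (0.12, adjusted p = 0.0662).

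Nanog, the homeodomain factor that marks naive stem cells, fell first. In WT its levels were 181 and 173 FPKM on day 0, then 15.3 and 16.1 on day 2, 12.5 and 13.9 on day 4 and finally 9.44 and 9.89 on day 6. In KO they were 188 and 193 FPKM on day 0, then 32.7 and 34.1 on day 2, 22.1 and 22.4 on day 4 and finally 4.78 and 5.12 on day 6. WT kept 8.86% of its day 0 level at day 2 and KO kept 17.5%. In no Dex they were 179 and 175 FPKM on day 0, then 31.6 and 31.8 on day 2, 15.7 and 17.0 on day 4 and finally 5.29 and 5.55 on day 6. In Dex they were 175 and 176 FPKM on day 0, then 16.7 and 16.9 on day 2, 7.79 and 8.02 on day 4 and finally 4.17 and 4.08 on day 6. At day 2 the no Dex libraries lay beside those of KO, at 17.9% of day 0, and the Dex libraries lay beside those of WT, at 9.60%. The first step accounted for most of the loss, with log2 changes of -3.42 ± 0.05 in WT, -2.48 ± 0.05 in KO, -2.44 ± 0.05 in no Dex and -3.31 ± 0.05 in Dex (SE). From then on WT changed little, with steps of -0.24 and -0.41, while KO dropped by 1.97 between days 4 and 6. The order of the lines at day 6 was therefore another than at day 2, and WT, lowest at day 2, was highest at day 6.

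Sox2, the SOXB1 factor shared by stem cells and neural progenitors, was the one gene that stayed within the same range throughout. In WT its levels were 232 and 262 FPKM on day 0, then 156 and 155 on day 2, 180.3 and 183 on day 4 and finally 197 and 196 on day 6. In KO they were 258 and 233 FPKM on day 0, then 154 and 153 on day 2, 209.8 and 206 on day 4 and finally 211 and 210.5 on day 6. The group means at day 6 were 79.5% of day 0 in WT and 85.9% in KO. In no Dex they were 206 and 200.5 FPKM on day 0, then 152 and 151 on day 2, 193 and 191 on day 4 and finally 171 and 172 on day 6. In Dex they were 241 and 234 FPKM on day 0, then 128 and 126 on day 2, 211 and 216 on day 4 and finally 175 and 170.3 on day 6. The Dex line had the deepest dip, to 53.3% of its day 0 mean at day 2, against 62.8% in WT, 62.5% in KO and 74.6% in no Dex. The fall from day 0 to day 2 was called in all 4 lines (log2 changes of -0.67, -0.67, -0.42 and -0.90), as was the rise from day 2 to day 4 (0.23, 0.44, 0.34 and 0.75, in the order WT, KO, no Dex, Dex). Between days 4 and 6 the gene rose by 0.11 in WT, which was not called after rescaling (0.01), fell by 0.16 in no Dex and by 0.30 in Dex, and was not called in KO.

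Sall4, the zinc finger factor of stem cells and early embryos, took nearly the same course in every line. In WT its levels were 86.9 and 73.7 FPKM on day 0, then 59.9 and 60.9 on day 2, 84.5 and 85.1 on day 4 and finally 31.4 and 30.4 on day 6. In KO they were 79.3 and 86.2 FPKM on day 0, then 58.5 and 59.1 on day 2, 84.8 and 85.4 on day 4 and finally 28.2 and 28.5 on day 6. In no Dex they were 83.1 and 80.8 FPKM on day 0, then 63.5 and 61.1 on day 2, 89.0 and 85.9 on day 4 and finally 29.8 and 28.0 on day 6. The level at day 4 was 105.6% of day 0 in WT, 102.8% in KO and 106.7% in no Dex. In Dex they were 80.3 and 77.3 FPKM on day 0, then 58.8 and 60.6 on day 2, 87.1 and 84.9 on day 4 and finally 24.1 and 26.1 on day 6. The dip to day 2 (log2 changes of -0.39 to -0.48), the return to day 4 (0.48 to 0.53) and the loss to day 6 (-1.43 to -1.74) were called in each of the 4 lines. At day 6 between 31.8% and 38.5% of the day 0 level was left, far more than for Pou5f1 and Nanog.

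Consecutive days were compared in each line, and the counts stand as follows. From day 0 to day 2 all 4 genes were called lower in WT, no Dex and Dex, and 3 of 4 in KO, where Pou5f1 was not called. The share of all genes called, in either direction, was 63.4% in WT, 65.6% in KO, 67.9% in no Dex and 60.6% in Dex. Called lower were 36.0%, 28.5%, 26.5% and 31.4% in the same order. From day 2 to day 4 Pou5f1 and Nanog were called lower and Sox2 and Sall4 higher in each line. In the same order of lines 59.9%, 64.2%, 60.8% and 66.7% of all genes were called in either direction. Called lower were 25.6%, 28.7%, 27.1% and 25.8%, and called higher 34.3%, 35.5%, 33.7% and 40.9%. The WT step of Nanog (-0.24) lost its call with the groups compared alone (adjusted p = 0.0535). From day 4 to day 6 Pou5f1, Nanog and Sall4 were called lower in each line. Of all genes 66.7%, 65.3%, 67.9% and 65.1% were called in either direction, and 25.0%, 30.5%, 31.1% and 27.7% were called lower. Since most genes were called in each step, these calls alone do not set the 4 genes apart. The small call for Pou5f1 from day 0 to day 2 in WT (-0.14) was not called after rescaling (-0.09).

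The balance between the factors moved with these courses. Sox2 stood at 0.279 of the Pou5f1 level in WT stem cells, with 0.268 and 0.291 in the 2 libraries, and OCT4 and SOX2 act as partners. At day 4 the ratio was 0.456 in WT, 1.03 in KO, 0.883 in no Dex and 2.51 in Dex. At day 6 it was 5.18 ± 0.06 in WT, 18.0 ± 1.4 in KO, 13.4 ± 1.1 in no Dex and 12.6 ± 1.0 in Dex (SD, n = 2). The Nanog to Pou5f1 ratio, 0.167 to 0.201 at day 0, was lowest at day 2, at 0.020 in WT, 0.038 in KO, 0.041 in no Dex and 0.021 in Dex. It had risen to between 0.255 and 0.425 by day 6, since Pou5f1 fell after Nanog had. Ratios within a library do not depend on the scaling between libraries.

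KO was compared with WT at each day to ask what the loss of the m6A writer does to the exit from pluripotency. No difference was called at day 0 for any of the 4 genes, while 48.2% of all genes were called. Without the first WT library, which had the lowest depth, Nanog (0.14), Sox2 (-0.095) and Sall4 (0.16) were called there. At day 2 Nanog was the gene that stood apart, 1.04 ± 0.05 higher in KO as a log2 difference (SE, adjusted p = 3.54e-13), with 32.7 and 34.1 FPKM against 15.3 and 16.1 FPKM. Pou5f1 was called at 0.13 ± 0.05 (adjusted p = 0.0351). This call was lost after rescaling (0.049, adjusted p = 0.443) and without any 1 of the 4 libraries compared (0.12 to 0.15). Sox2 and Sall4 were not called. The libraries of KO and WT did not overlap for Nanog on that day. The share of all genes without overlap was not counted, so this does not mark Nanog out among all genes. At that day 58.9% of all genes were called. At day 4 the genes parted. Pou5f1 was lower in KO, with a log2 difference of -0.98 ± 0.05 (adjusted p = 4.96e-12), while Nanog was still higher by 0.71 ± 0.05 (adjusted p = 5.75e-11). Sox2 was higher by 0.19 ± 0.04 (adjusted p = 0.000454), and Sall4 was not called (adjusted p = 0.955, SE 0.055). These are 3 of 4 genes called, against 60.5% of all genes. At day 6 Pou5f1 (-1.61 ± 0.05, adjusted p = 1.43e-15) and Nanog (-0.84 ± 0.05, adjusted p = 2.74e-12) were lower in KO, Sox2 was called at 0.10 ± 0.04 (adjusted p = 0.0385), and Sall4 was not called (-0.12 ± 0.05, adjusted p = 0.0674). The Sox2 call was lost without any 1 of the 4 libraries compared. The share of all genes called at day 6 was 65.1%.

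**Figure D2:**
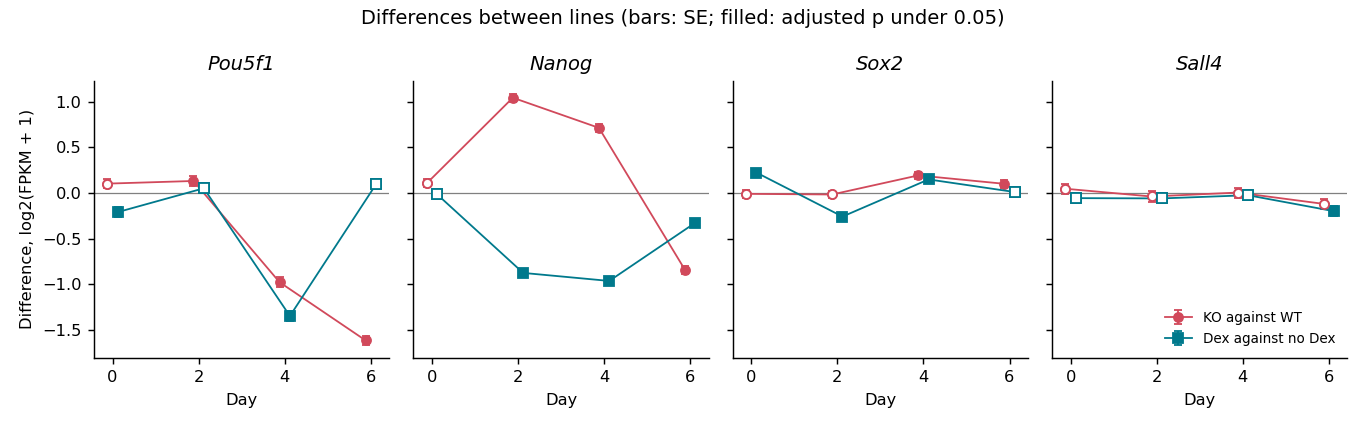
Log2 difference of FPKM + 1 between lines against day for the 4 genes, KO against WT as circles and Dex against no Dex as squares, with bars of 1 SE and filled symbols where the adjusted p is under 0.05. Nanog in KO against WT passes from 1.04 at day 2 to -0.84 at day 6, and Pou5f1 in Dex against no Dex reaches -1.35 at day 4 and is near 0 at days 2 and 6.

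The course itself was compared between KO and WT through interaction contrasts. The change from day 0 to day 6 was larger in KO for Pou5f1, by -1.72 ± 0.07 (SE, adjusted p = 3.2e-13), and for Nanog, by -0.95 ± 0.06 (adjusted p = 2.12e-10), and was not called for Sox2 (0.11) or Sall4 (-0.17). In this contrast 56.9% of all genes were called. Contrasts of single steps were added after the levels had been seen. For Nanog the step to day 2 was smaller in KO (0.94 ± 0.06, adjusted p = 7.9e-10), and the later steps were larger (-0.33 and -1.56, both called). For Pou5f1 the first step did not differ by a called amount (0.03, adjusted p = 0.773), and both later steps were larger in KO (-1.11 and -0.64, both called). Sox2 rose more in KO from day 2 to day 4 (0.21 ± 0.06, adjusted p = 0.00706), and none of the steps of Sall4 was called. The 3 steps had 48.9%, 42.4% and 48.0% of all genes called.

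Primitive endoderm markers moved with the KO and WT contrast. All 9 markers on the list, which include Gata4, Gata6 and Sox17, were tested, and 7 of them at day 0 and all 9 at days 2, 4 and 6 were lower in KO, none higher. Of all genes 29.8%, 21.3%, 24.0% and 34.2% were called lower in KO at days 0, 2, 4 and 6. Their summed level was 23.9, 59.1, 47.7 and 78.0 FPKM in WT at days 0, 2, 4 and 6, and 4.34, 5.88, 9.59 and 13.4 FPKM in KO. Markers of eye field cells summed to 692 FPKM in WT and to 120 FPKM in KO at day 6, and neuron markers to 41.9 and 299 FPKM. In stem cells at day 0 the neuron markers already summed to 337 FPKM in WT and 303 FPKM in KO. Their sum therefore cannot be read as an amount of neurons. The part of these markers' cells in the differences of the 4 genes was not tested.

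The fusion line without Dex was compared with KO at each day. At day 0 Pou5f1 was called higher (0.17 ± 0.05) and Sox2 lower (-0.27 ± 0.04, adjusted p = 1.87e-05), with 205.5 and 200.5 FPKM of Sox2 against 258 and 233 FPKM in KO. That made 2 of 4 genes, against 49.1% of all genes. At day 2 only Pou5f1 was called (-0.18 ± 0.05, adjusted p = 0.00895), against 37.0% of all genes. At day 4 Nanog was lower in no Dex by a log2 difference of -0.42 ± 0.05 (adjusted p = 1.55e-06), Sox2 was called at -0.11, a call lost without the filter on low values (adjusted p = 0.0948), and 26.7% of all genes were called. At day 6 Sox2 was lower (-0.30 ± 0.04, adjusted p = 6.34e-06) and Nanog was called at 0.11, against 49.0% of all genes. Sall4 was called at none of the 4 days.

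Dex was compared with no Dex to ask what follows when the fusion protein is sent to the nucleus. The largest difference was in Pou5f1 at day 4, with 84.1 and 86.0 FPKM in Dex against 216 and 219.9 FPKM in no Dex. The log2 difference was -1.35 ± 0.05 (SE, adjusted p = 4.01e-13). Neither day 2 (0.05) nor day 6 (0.10) was called for this gene, and at day 0 it was called at -0.21 ± 0.05 (adjusted p = 0.00282). Nanog was lower in Dex at 3 of 4 days, by log2 differences of -0.87 ± 0.05 at day 2 (adjusted p = 3.76e-11), -0.96 ± 0.05 at day 4 (adjusted p = 4.32e-12) and -0.33 ± 0.05 at day 6 (adjusted p = 8.1e-06). The libraries of the 2 groups did not overlap at these days. Since the share of all genes without overlap was not counted, this does not mark Nanog out among all genes. At day 0 Nanog was not called (-0.01). Sox2 was higher in Dex at day 0 (0.22 ± 0.04), lower at day 2 (-0.26 ± 0.04), higher at day 4 (0.15 ± 0.04) and not called at day 6 (0.01). Sall4 was called at day 6 only (-0.20 ± 0.05, adjusted p = 0.00649), with 24.1 and 26.1 FPKM against 29.8 and 28.0 FPKM. On days 0, 2, 4 and 6 the counts were 2, 2, 3 and 2 of 4 genes, and the shares of all genes called were 43.4%, 44.3%, 40.2% and 42.7%.

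Interaction contrasts showed where the courses of Dex and no Dex parted. From day 0 to day 6 the change was smaller in Dex for Pou5f1 (0.30 ± 0.07, adjusted p = 0.00196, or 0.0622 with the groups compared alone) and larger for Nanog (-0.31 ± 0.06, adjusted p = 0.00043) and Sox2 (-0.21 ± 0.06, adjusted p = 0.00517), and Sall4 was not called (-0.14), with 48.7% of all genes called. By steps, Pou5f1 differed by 0.26 to day 2, -1.40 to day 4 and 1.44 to day 6, all called. Nanog differed by -0.86 to day 2 and by 0.64 from day 4 to day 6, and Sox2 by -0.48 and then 0.41 in the first and second steps. Of all genes 45.0%, 31.3% and 41.2% were called in the 3 steps. Of 6 eye field markers, 5 were called higher in Dex and 1 was not called, at day 4 and again at day 6. Of all genes 18.3% and 23.8% were called higher on these days. The summed level of the markers was 310 and 438 FPKM in Dex against 60.8 and 198 FPKM in no Dex. Their part in the differences of the 4 genes was not tested.

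Dex was also set against WT, to show how near the treated line came to it. At day 0 none of the 4 genes was called, against 49.8% of all genes. At day 2 Pou5f1 (0.00), Nanog (0.10, adjusted p = 0.118) and Sall4 (-0.02) were not called and Sox2 was lower (-0.29 ± 0.04, adjusted p = 2.4e-05), against 29.4% of all genes. At day 4 Pou5f1 was far below WT (-2.22 ± 0.05, adjusted p = 1.35e-16), with 84.1 and 86.0 FPKM against 396 and 401 FPKM, and Nanog was below it too (-0.67 ± 0.05). Sox2 was above WT (0.23 ± 0.04), and 44.7% of all genes were called. At day 6 all 4 genes were lower than in WT (-1.40, -1.06, -0.18 and -0.29 for Pou5f1, Nanog, Sox2 and Sall4). Of all genes 61.4% were called in either direction and 32.2% were called lower. At day 2 Nanog in Dex thus lay 0.10 ± 0.05 (SE) from WT on the log2 scale. KO lay 1.04 ± 0.05 from it, in comparisons that share the WT libraries. After rescaling the difference of Dex from WT was called (0.12, limma adjusted p = 0.0474).

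The order of the 4 lines at each day was read from all 6 pairwise comparisons. For Pou5f1 at day 0 no Dex stood above the other 3 lines, which did not differ by called amounts, and at day 2 KO stood above the other 3. At day 4 the order was WT, then no Dex and KO, which were not called against each other, then Dex. At day 6 WT stood above all, followed by Dex, no Dex and KO, of which only Dex and KO were called (0.21). For Nanog KO and no Dex stood above Dex and WT at day 2, with no call within either pair. At day 4 all neighbours in the order KO, no Dex, WT, Dex were called, and so were all in the order WT, no Dex, KO, Dex at day 6. For Sox2 the line standing apart was no Dex at day 0 (lower) and Dex at day 2 (lower), at day 4 Dex and KO stood above WT, and at day 6 the order was KO, WT, then Dex and no Dex without a call between them. For Sall4 no pair was called at days 0, 2 and 4, and at day 6 Dex was below each of the other 3 lines. Several of the smaller differences in these orders depended on the processing. After rescaling Pou5f1 was no longer called at day 2 between KO and WT (KO minus WT 0.049) or between Dex and KO (Dex minus KO -0.023), its day 6 call of Dex against KO was lost with the groups compared alone (adjusted p = 0.173), and so were the day 6 calls of Sall4 in Dex against KO (adjusted p = 0.0615) and no Dex (adjusted p = 0.087). For Nanog at day 6, no Dex against KO lost its call without the filter on low values (adjusted p = 0.0796), with the groups compared alone (adjusted p = 0.235) and without the first KO library (0.069) or the second no Dex library (0.081). Dex against KO lost its call there with the groups compared alone (adjusted p = 0.0531). Of 24 line comparisons for each gene, 15 were called for Pou5f1, 17 for Nanog, 15 for Sox2 and 3 for Sall4. The largest difference was 2.22 for Pou5f1, 1.38 for Nanog, 0.30 for Sox2 and 0.29 for Sall4, as absolute log2 values. For no Dex against WT 62.4%, 46.0%, 51.9% and 62.8% of all genes were called at days 0, 2, 4 and 6, and for Dex against KO 42.5%, 53.9%, 53.0% and 51.4%.

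Genes known as direct targets of OCT4 and SOX2 were lower in KO at days 4 and 6. Pou5f1 was lower on these days as well, and a link between them was not tested. The list held Fgf4 (a growth factor), Utf1 (a chromatin factor), Fbxo15, Lefty1 (a Nodal inhibitor) and Zfp42 (the naive marker Rex1), all tested. In KO against WT 2 of 5 were higher at day 0, against 18.4% of all genes. At day 2 Lefty1 was higher (1.12) and Fbxo15 lower (-0.44), where 37.5% and 21.3% of all genes were called higher and lower. At days 4 and 6 all 5 were lower in KO, where 24.0% and 34.2% of all genes were called lower, with medians of -0.83 and -1.40 beside 0.06 and -0.03 over all genes. Utf1 showed the largest difference, from 36.8 FPKM in WT to 4.18 FPKM in KO at day 6, a log2 difference of -2.86 ± 0.05 (adjusted p = 1.22e-19), and it had been 695 and 774 FPKM at day 0. In Dex against no Dex 3 of 5 were lower at day 2, led by Lefty1 (-1.37 ± 0.14) and Zfp42 (-0.96 ± 0.05), with a median of -0.52 beside -0.08 over all genes, of which 31.5% were called lower. At day 4, where Pou5f1 differed most, Utf1 (-0.33) and Zfp42 (-0.23) were lower in Dex, 2 of 5 against 21.9% of all genes. At day 6 Utf1 was higher (0.85) and Zfp42 lower (-0.55), where 23.8% and 19.0% of all genes were called higher and lower.

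The wider network of pluripotency regulators had 16 genes on its list, all tested. From day 0 to day 6, 15 of the 16 fell in WT, KO and no Dex and all 16 in Dex, with medians of -3.83, -4.60, -4.37 and -4.60 beside medians over all genes of 0.09 to 0.17. Between 33.9% and 35.4% of all genes were called lower in these comparisons. The gene that rose in WT and KO was Lin28a, an RNA-binding inhibitor of let-7 maturation, with 98.0 FPKM at day 0, 272 at day 4 and 165 at day 6 in WT. In no Dex Lin28a was called at 0.11, and this turned to -0.055 after rescaling, which makes all 16 lower there. In KO against WT the counts of higher and lower genes were 2 and 9 on day 0, then 5 and 8, 3 and 9, and 1 and 14 on days 2, 4 and 6. Over all genes the shares called higher and lower were 18.4% and 29.8% on day 0, 37.5% and 21.3% on day 2, 36.5% and 24.0% on day 4, and 30.9% and 34.2% on day 6. The medians were -0.23, -0.19, -0.24 and -0.75, beside -0.04, 0.09, 0.06 and -0.03 over all genes. At day 2 the higher ones included Klf2 (0.95), Klf4 (0.76), both Kruppel-like factors of naive cells, and Tdgf1 (0.71), the Nodal co-receptor, and the lower ones included Nr0b1 (-0.81). At day 6 the largest differences were in Klf5 (-1.98), Tdgf1 (-1.96), Dppa4 (-1.58) and Dppa2 (-1.31). At that day WT had 6.02 FPKM of Klf5 and KO 0.78 FPKM. In Dex against no Dex the counts were 9 higher and 2 lower on day 0, then 1 and 13, 4 and 6, and 4 and 4 on days 2, 4 and 6. The shares over all genes were 27.3% and 16.1%, then 12.7% and 31.5%, 18.3% and 21.9%, and 23.8% and 19.0%. The day 2 fall had a median of -0.38 beside -0.08 over all genes and was led by Esrrb (-0.91), the orphan nuclear receptor of naive cells, Tbx3 (-0.83), Nr5a2 (-0.67) and Klf4 (-0.63).

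**Figure D3:**
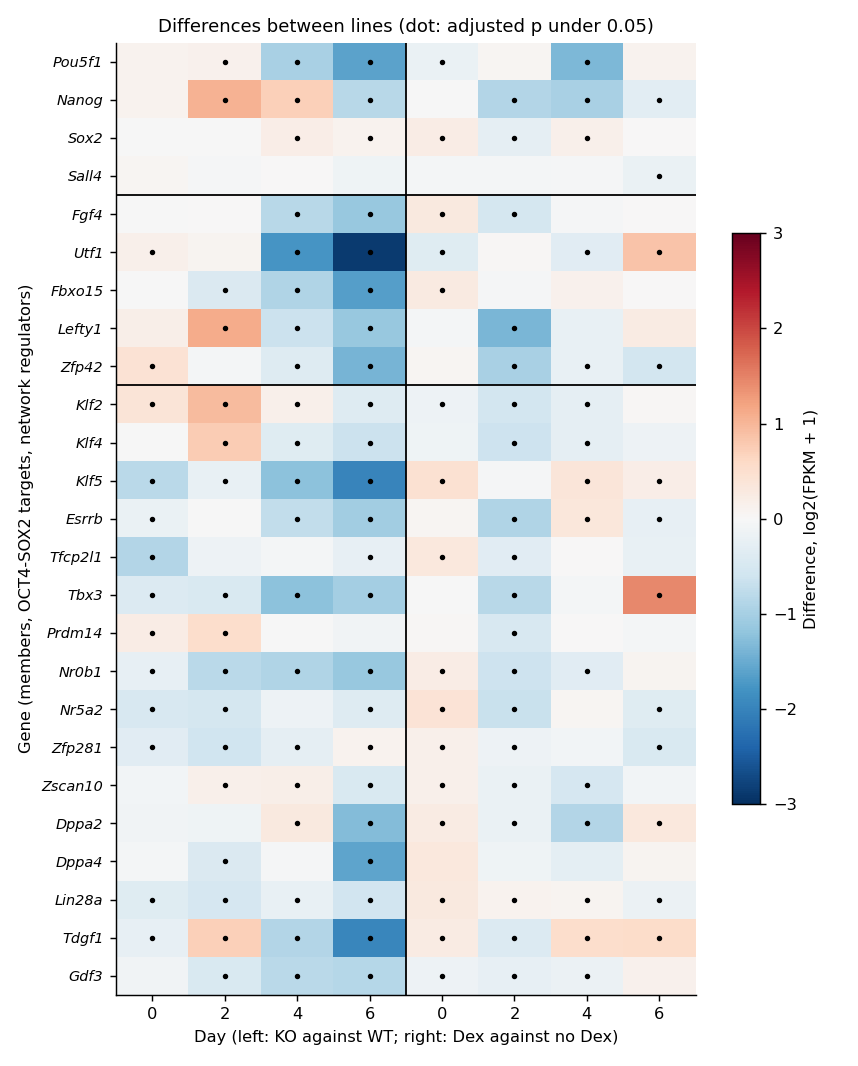
Log2 differences of FPKM + 1 (colour, from -3 in blue to 3 in red) for the 4 genes, 5 target genes and 16 network regulators, with KO against WT in the 4 columns on the left and Dex against no Dex on the right, by day, and dots where the adjusted p is under 0.05. The column of KO against WT at day 6 is blue for all 5 targets and for 14 of the 16 regulators with a dot, and the column of Dex against no Dex at day 2 is blue with a dot for 13 regulators.

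Several of the nearest relatives of the 4 genes rose while these fell, as the plot of the 3 gene families shows. Among POU genes, Pou3f1 (OCT6, of the epiblast and early neural cells) rose from 2.46 FPKM at day 0 to 108 FPKM at day 2 in WT, and stood at 69.5 and 4.43 FPKM at days 4 and 6. In KO it was 3.20, 155, 35.8 and 19.2 FPKM. At day 6 WT had 2.06 FPKM of Pou3f2 and 1.75 FPKM of Pou3f3, both neural factors, and KO had 22.1 and 23.7 FPKM, log2 differences of 2.92 ± 0.06 and 3.17 ± 0.05 (SE), and Pou3f4 (1.80) was higher as well. Of the 5 relatives, 4 were called higher in KO at day 6, and Pou2f1 (0.03), the widely expressed OCT1, was not called, while 30.9% of all genes were called higher. In Dex against no Dex all 5 were lower at day 6, with a median of -0.67, while 19.0% of all genes were called lower.

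**Figure D4:**
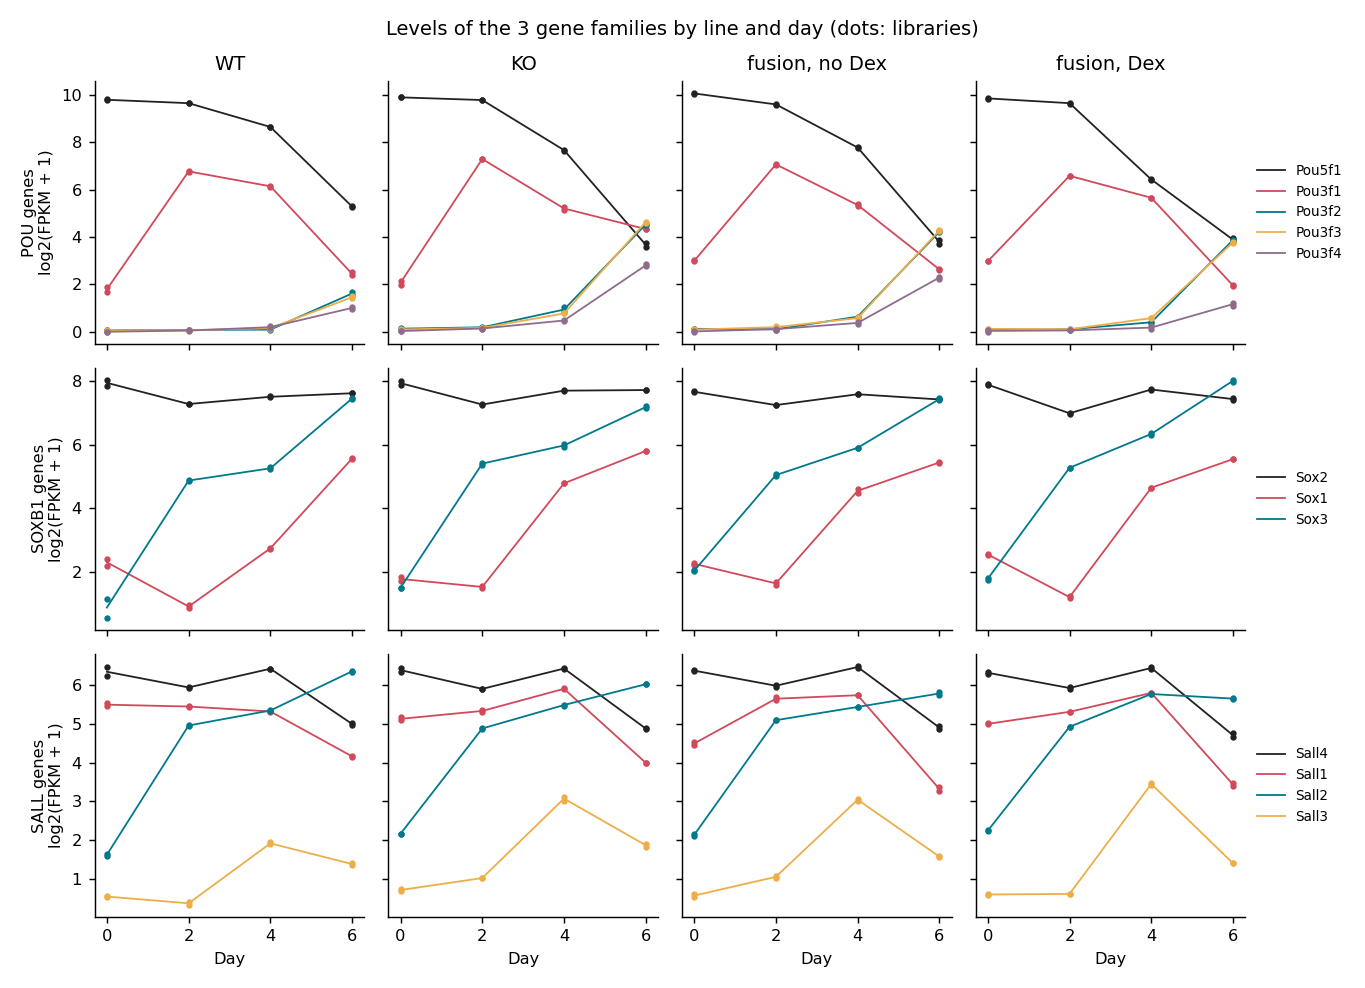
log2(FPKM + 1) of the POU, SOXB1 and SALL genes (rows) against day in each line (columns), with libraries as dots and lines through group means. Pou5f1 falls in every line while Pou3f1 peaks at day 2. Sox3 and Sox1 end higher at day 6 than they began, beside a more level Sox2, and Sall2 climbs while Sall4 and Sall1 end lower.

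Sox1 and Sox3, the other SOXB1 genes and markers of neural progenitors, were called higher at day 6 than at day 0 in every line. Between 43.6% and 48.0% of all genes were called higher in these comparisons. From day 0 to day 2, 1 of them was called lower in each line, which in WT was Sox1. Of all genes 26.5% to 36.0% were called lower in that step. Sox3 went from 0.82 to 28.3, 37.3 and 175 FPKM in WT over days 0, 2, 4 and 6, close to the 197 FPKM of Sox2 at day 6, and it reached 259 FPKM in Dex, above the 173 FPKM of Sox2. At day 4 WT had 5.65 FPKM of Sox1 and KO had 26.5 FPKM, a log2 difference of 2.05 ± 0.06 (adjusted p = 6.93e-16), and at day 6 they had 46.5 and 54.9 FPKM. Both were higher in KO at days 2 and 4, when 37.5% and 36.5% of all genes were called higher. Among SALL genes, Sall2 rose from 2.06 to 81.0 FPKM in WT between days 0 and 6 and Sall1 went from 44.1 to 16.8 FPKM. Sall3 was highest at day 4, when WT had 2.76 FPKM and KO 7.38 FPKM (1.16). All 3 SALL relatives were called higher in KO at day 4, a day at which Sall4 was not called and 36.5% of all genes were called higher.

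The genes most alike in course were taken as the 5 with the highest Pearson r to each gene over the 16 group means, among 8932 genes. These values describe the data and carry no test, since the points share lines and days. For Pou5f1 they were Ccnb1ip1 (0.990), L1td1 (0.990), Utf1 (0.989), Gart (0.985) and Klf9 (0.985). For Nanog they were Steap3 (0.989), Tmc6 (0.975), Icam1 (0.973), Tex2 (0.971) and Slc29a1 (0.970). The best matches of Sox2 were looser, with Por at 0.909, Hk1 at 0.900, Dcbld1 at 0.892, Itga5 at 0.877 and Sesn1 at 0.872. For Sall4 they were Pisd (0.931), Ppp1r2 (0.930), Dact2 (0.922), Mapk13 (0.921) and Crybg2 (0.917). None of the 4 genes was among the 5 best matches of another. Between them r was 0.788 for Pou5f1 and Nanog, 0.798 for Pou5f1 and Sall4, 0.640 for Nanog and Sall4, 0.462 for Nanog and Sox2, 0.270 for Sox2 and Sall4 and -0.034 for Pou5f1 and Sox2.

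Because the knocked-out enzyme methylates adenines in a short sequence context, the letters GGACT, the core of its preferred context, were counted on the sense strand of the annotated transcripts. Nanog held 4 matches, 2 of them in the 3′ UTR, or 1.81 per kb, and 16.4% of 21899 coding genes had as many per kb or more. Sox2 held 3, all in the 3′ UTR, or 1.46 per kb (27.3% of genes), Sall4 held 5 or 0.99 per kb (51.6%), and Pou5f1 held 1 or 0.73 per kb (65.8%), beside a median of 1.01 per kb. The match nearest to the end of the coding part of each transcript, with its 10 neighbouring bases on either side and the match in capitals, is shown for comparison.
Nanog, coding, 159 bases before the end: acttcggggaGGACTttctgcagcc
Sox2, 3′ UTR, 6 bases after the end: tgtgagggctGGACTgcgaactgga
Sall4, 3′ UTR, 422 bases after the end: gaaacagttgGGACTcattggacca
Pou5f1, coding, 833 bases before the end: acctcaggttGGACTgggcctagtc
These are letters in the GENCODE M21 transcripts, and methylation was not measured in these libraries. Any relation of these matches to the differences between KO and WT was not tested, and 4 genes allow no such test.

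Neighbouring and related rows could share fragments with these genes. An antisense gene overlaps Pou5f1 (at most 1.62 FPKM), Sox2ot overlaps Sox2 on the same strand (at most 8.70 FPKM) and a further transcript overlaps Sall4 on the opposite strand (at most 0.51 FPKM), all far below the gene they overlap. Whether the counting used strand is not given in the sources used here, so reads of an antisense partner cannot be told apart. The pseudogene Nanog-ps1 was listed at 0 in all libraries but 3, the highest at 3.96 FPKM in KO at day 0, and Nanog-ps2 was listed at 0 in every library. Sox21, a SOX gene outside the SOXB1 group, had 1.03 FPKM in WT at day 4 and 17.2 FPKM in KO, a log2 difference of 3.16 ± 0.03. At day 6 Sox2ot had 8.32 FPKM in WT and 2.93 FPKM in KO (-1.25), while Sox2 differed by 0.10.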

How the data were processed

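Polyadenylated RNA of 32 mouse libraries, 2 in each of 16 groups (4 lines at 4 days), was analysed from the table the authors deposited. Its values are FPKM made by the authors from paired-end reads. STAR and Cuffdiff are named, with the build mm10, in the submitters' processing notes. The annotation and the strand setting are not given in the sources used here. Whether libraries were scaled by their totals or otherwise is not given there either. Scaling by library total would tie each gene's FPKM to all others, which the rescaling alternative addresses. Under another scaling the estimated depths would carry its factors too.

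Genes entered the test with 1 FPKM or more in 2 or more libraries, 16276 of 55492 rows. The fit used limma 3.58.1 in R 4.3.3 (lmFit, contrasts.fit and eBayes with a trend) on log2(FPKM + 1), with a pseudocount of 1, 16 group means and 16 residual degrees of freedom. Tests were two-sided with Benjamini-Hochberg adjustment over all genes tested, at 0.05. Differences on this scale understate those of low genes. The procedure was tested on simulated data. Depth was estimated from the steps of low FPKM values, of which 79.7% to 90.6% were within 0.2 of a whole number of fragments (chance gives 40.0%). FPKM were not turned back into counts.

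Groups come from the labels. The 4 genes and the gene lists were chosen with earlier results of these data known. Named genes are the 4 genes, up to 4 called genes of a list with the largest change in the comparison described, all POU, SOXB1 and SALL relatives, the 5 most alike genes with a mean of at least 5 FPKM, rows whose symbol begins with that of one of the 4 genes, and Mettl3. Genes named outside this rule were chosen after their values were seen. Positions come from GENCODE M21 (99.5% of IDs matched), upstream sequences from RefSeq. Alternatives were a pseudocount of 0.1, no filter (34331 genes), a mean of at least 5 FPKM (9412 genes), rescaling by median-of-ratios factors (0.921 to 1.064), the groups compared alone, the replicate number as a block, and leaving out each library.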

Additional observations from a re-analysis of the deposited data

Results flagged for a closer look

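The results here are differences between 2 courses, tested as interaction contrasts with limma, each with an adjusted p under 0.05. Values are log2 differences of the change in the first-named line less that in the other. The contrasts of single steps were chosen after the levels had been seen, and no explanation was tested for any of them.

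Between KO and WT, Pou5f1 differed in the change from day 0 to day 6 (-1.72), from day 2 to day 4 (-1.11) and from day 4 to day 6 (-0.64). Nanog differed over the whole course (-0.95) and in each step, with 0.94 to day 2, -0.33 to day 4 and -1.56 to day 6. The sign of its difference thus turned within the course, since Nanog fell less in KO at first and more later. Sox2 differed from day 2 to day 4 (0.21).

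Between Dex and no Dex, Pou5f1 differed over the whole course by 0.30, a call lost with the groups compared alone (adjusted p = 0.0622), and by steps of 0.26, -1.40 and 1.44. Nanog differed over the whole course (-0.31), to day 2 (-0.86) and from day 4 to day 6 (0.64). Sox2 differed over the whole course (-0.21), to day 2 (-0.48) and from day 2 to day 4 (0.41). Primitive endoderm markers summed to 78.0 FPKM in WT and 13.4 FPKM in KO on day 6, and to 13.1 FPKM in Dex and 10.3 FPKM in no Dex, and their part in these differences was not tested.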

How the results depend on the processing

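Of 192 tested results on the 4 genes 130 were called. All 69 called results of at least 0.5 on the log2 scale kept their direction and their call under every alternative, with each library left out as well. The changes below concern smaller values, and their cause was not tested. Rescaling moved the share of the day 0 level by at most 11.4 percentage points and leaving out a library by at most 9.47 points.

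With a pseudocount of 0.1, calls were lost for Nanog in Dex against KO on day 0 (-0.12) and Sox2 in no Dex against KO on day 4 (-0.11). Without the filter on low values, calls were lost for Nanog in no Dex against KO on day 6 (0.11), in Dex against KO on day 0 (-0.12), Pou5f1 in KO against WT on day 2 (0.13), in Dex against KO on day 2 (-0.13) and Sox2 in KO against WT on day 6 (0.10), in no Dex against KO on day 4 (-0.11). With a mean of at least 5 FPKM, calls were gained for Nanog in KO against WT on day 0 (0.11), in no Dex against KO on day 0 (-0.11). After rescaling, calls were lost for Nanog in Dex against KO on day 0 (-0.069), Pou5f1 in KO against WT on day 2 (0.049), in Dex against KO on day 2 (-0.023), in day 2 against day 0 in WT (-0.089) and Sox2 in no Dex against KO on day 4 (-0.085), in day 6 against day 4 in WT (0.013). Calls were gained for Nanog in Dex against WT on day 2 (0.12), in no Dex against WT on day 0 (0.11), Pou5f1 in no Dex against KO on day 6 (0.15), in Dex against no Dex on day 2 (0.14), in day 2 against day 0 in KO (-0.14), Sall4 in no Dex against WT on day 0 (0.14), in the change from day 4 to day 6, Dex against no Dex (-0.22) and Sox2 in KO against WT on day 2 (-0.099), in the change from day 4 to day 6, Dex against no Dex (-0.18) under that setting. Values without a call changed sign for Nanog in Dex against WT on day 0 (0.036), Pou5f1 in Dex against KO on day 0 (0.006), in the change from day 0 to day 2, KO against WT (-0.053), Sall4 in KO against WT on day 4 (-0.084), in no Dex against KO on day 0 (0.093), in Dex against no Dex on day 2 (0.031), in Dex against WT on day 0 (0.027), in Dex against WT on day 2 (0.010), in Dex against WT on day 4 (-0.018), in no Dex against WT on day 2 (-0.021), in no Dex against WT on day 4 (-0.017), in the change from day 0 to day 2, Dex against no Dex (0.14), in the change from day 2 to day 4, Dex against no Dex (-0.032) and Sox2 in Dex against no Dex on day 6 (-0.009), in Dex against KO on day 0 (0.003) under that setting. With the groups compared alone, calls were lost for Nanog in no Dex against KO on day 6 (0.11), in Dex against KO on day 6 (-0.21), in day 4 against day 2 in WT (-0.24), Pou5f1 in Dex against KO on day 6 (0.21), in the change from day 0 to day 6, Dex against no Dex (0.30), Sall4 in Dex against no Dex on day 6 (-0.20), in Dex against KO on day 6 (-0.17) and Sox2 in no Dex against WT on day 0 (-0.28). Calls were gained for Pou5f1 in day 2 against day 0 in KO (-0.11), Sall4 in KO against WT on day 6 (-0.12), in the change from day 4 to day 6, KO against WT (-0.12) and Sox2 in no Dex against WT on day 4 (0.080), in the change from day 4 to day 6, KO against WT (-0.092), in the change from day 4 to day 6, Dex against no Dex (-0.14) under that setting. The replicate numbers did not pair the libraries, since same-numbered libraries deviated together with correlations from -0.09 to 0.13 over 120 pairs. With the replicate number as a block, calls were lost for Sox2 in no Dex against KO on day 4 (-0.11), and calls were gained for Nanog in KO against WT on day 0 (0.11), in no Dex against KO on day 0 (-0.11). The block changed no other call among the 192 results.

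With 1 library left out, the following changed, each with its lowest and highest log2 difference over the refits. In these, rep is the replicate and 1/2 is either one. For Pou5f1 calls changed in day 2 against day 0 in WT (-0.17 to -0.12, lost without WT day 0 rep 2 or WT day 2 rep 1/2), KO against WT on day 2 (0.12 to 0.15, lost without WT day 2 rep 1/2 or KO day 2 rep 1/2), no Dex against KO on day 0 (0.14 to 0.18, lost without KO day 0 rep 1 or no Dex day 0 rep 2), Dex against KO on day 2 (-0.16 to -0.11, lost without KO day 2 rep 1/2 or Dex day 2 rep 1/2), no Dex against KO on day 2 (-0.20 to -0.17, lost without KO day 2 rep 2 or no Dex day 2 rep 2), no Dex against KO on day 6 (0.042 to 0.20, gained without KO day 6 rep 1 or no Dex day 6 rep 2), Dex against KO on day 6 (0.12 to 0.31, lost without KO day 6 rep 2 or Dex day 6 rep 1) and Dex against no Dex on day 6 (-0.001 to 0.19, gained without no Dex day 6 rep 1 or Dex day 6 rep 2, sign changed without another). For Nanog calls changed in KO against WT on day 0 (0.073 to 0.14, gained without WT day 0 rep 1), Dex against KO on day 0 (-0.14 to -0.10, lost without KO day 0 rep 1/2 or Dex day 0 rep 1/2) and no Dex against KO on day 6 (0.069 to 0.15, lost without KO day 6 rep 1 or no Dex day 6 rep 2). For Sox2 calls changed in KO against WT on day 0 (-0.095 to 0.078, gained without WT day 0 rep 1, sign changed without another), Dex against WT on day 0 (-0.14 to 0.031, gained without WT day 0 rep 1, sign changed without another), the change from day 0 to day 6, KO against WT (0.023 to 0.20, gained without WT day 0 rep 1 or KO day 0 rep 1), day 6 against day 4 in WT (0.098 to 0.12, lost without WT day 4 rep 1 or WT day 6 rep 1/2), KO against WT on day 6 (0.099 to 0.10, lost without WT day 6 rep 1/2 or KO day 6 rep 1/2), Dex against KO on day 0 (-0.12 to 0.024, gained without KO day 0 rep 2, sign changed without another), no Dex against KO on day 4 (-0.12 to -0.10, lost without KO day 4 rep 1/2 or no Dex day 4 rep 1/2) and Dex against no Dex on day 4 (0.13 to 0.16, lost without Dex day 4 rep 2). For Sall4 calls changed in KO against WT on day 0 (-0.071 to 0.16, gained without WT day 0 rep 1, sign changed without another), Dex against WT on day 0 (-0.14 to 0.096, gained without WT day 0 rep 2, sign changed without another), no Dex against WT on day 0 (-0.083 to 0.15, gained without WT day 0 rep 1, sign changed without another), the change from day 0 to day 6, KO against WT (-0.28 to -0.048, gained without WT day 0 rep 1 or KO day 0 rep 1), the change from day 0 to day 2, KO against WT (-0.20 to 0.033, gained without WT day 0 rep 1, sign changed without another), Dex against KO on day 6 (-0.23 to -0.12, lost without KO day 6 rep 2 or Dex day 6 rep 1), Dex against no Dex on day 6 (-0.26 to -0.14, lost without no Dex day 6 rep 1 or Dex day 6 rep 1) and the change from day 4 to day 6, Dex against no Dex (-0.23 to -0.12, gained without Dex day 6 rep 2). Values without a call changed sign for Nanog in Dex against WT on day 0 (-0.047 to 0.020), in Dex against no Dex on day 0 (-0.032 to 0.004), Sox2 in the change from day 0 to day 2, KO against WT (-0.095 to 0.079), in Dex against no Dex on day 6 (-0.010 to 0.032) and Sall4 in no Dex against KO on day 0 (-0.073 to 0.047), in KO against WT on day 4 (-0.001 to 0.011), in the change from day 0 to day 2, Dex against no Dex (-0.031 to 0.024), in Dex against no Dex on day 4 (-0.049 to 0.002), in no Dex against KO on day 6 (-0.017 to 0.067), in Dex against WT on day 2 (-0.037 to 0.006), in Dex against KO on day 4 (-0.003 to 0.033).

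Of the 5 genes most like Nanog only 1 was shared when all genes were candidates, and 4 or 5 were shared for each gene under the other settings. Groups of 2 libraries limit all of these tests, and a library left out leaves a group of 1 that is assumed to vary like the other groups. Depth limits none of the 4 genes, whose lowest value of 4.08 FPKM lies far above the 0.052 FPKM of 3 fragments on 2 kb.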

Other observations

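Germ cell genes share several regulators with stem cells, and Dppa3 (STELLA), a maternal and germ cell factor that marks naive cells, differed between lines from the start. On day 0 its mean level was 5.65 FPKM in WT, 17.3 FPKM in KO, 25.7 FPKM in no Dex and 30.6 FPKM in Dex. The log2 difference of KO against WT was 1.46 ± 0.11 (SE, limma adjusted p = 2e-09) on day 0, when no call was made for Nanog, and 1.47 ± 0.11 (adjusted p = 6.81e-10) on day 2. Dex was lower than no Dex for Dppa3 on day 2 (-0.76 ± 0.11) and day 4 (-0.54 ± 0.11). Tfap2c, a further factor of germ cells, was higher in KO on day 2 (0.51 ± 0.06) and not called on day 0 (0.07). Dazl, an RNA-binding protein of germ cells, went the other way, with -0.95 ± 0.09 on day 0 and -0.78 ± 0.09 on day 2.

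Trophectoderm, mesendoderm and fibroblast markers were low in every library, while primitive endoderm markers were not low in WT. The 6 trophectoderm markers summed to between 1.17 and 15.02 FPKM per library, with Cdx2 at 0.49 FPKM or less and Elf5 at 0.34 FPKM or less. The 6 mesendoderm markers summed to between 2.18 and 14.7 FPKM, of which Eomes reached 12.1 FPKM and T 1.39 FPKM. The 6 fibroblast markers summed to between 0.37 and 12.0 FPKM per library.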
